A study of Canis lupus familiaris with 10 samples.

Results

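The zinc finger genes described here are those whose symbol on the Affymetrix Canine_2 array starts with ZNF, ZBTB, ZSCAN or ZKSCAN. They were chosen by symbol and by signal: a probe set had to be annotated to 1 gene and to lie above the 40th percentile of its array on at least 3 of 10 arrays, and each gene was read at its probe set with the highest mean. The array held 388 such probe sets for 227 genes, and 170 genes passed (74.9%), out of 11143 genes tested in all. The 170 members were 135 of 181 ZNF genes, 27 of 36 ZBTB genes and 8 of 10 ZSCAN or ZKSCAN genes. The other 57 genes of the families did not pass, and of these only the nearest to the threshold are given. Of the members, 146 were above the threshold on every array and 24 on fewer. ZNF583 was above it on no Golden Retriever array, and 7 members reached 3 arrays only with the help of the non-Golden Retrievers. Because the symbol set the membership, a few members do not carry the fold. ZBTB8OS encodes archease, a factor of tRNA splicing, and ZNFX1 encodes an RNA helicase with zinc fingers of another type.

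The signal threshold was between 5.02 and 5.16 log2 units on the 10 arrays. Just inside it lay ZNF790, with signals of 3.41 to 5.39, and ZBTB7A, with signals of 4.75 to 5.18. Just outside lay ZNF275, at 4.73 to 5.23, and ZNF662, at 3.97 to 5.73.

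The C2H2 zinc finger is a short loop of protein held by a zinc ion on paired cysteines and histidines, and proteins that carry fingers in a row read DNA sequence with them. Many ZNF proteins also carry a KRAB domain, which recruits TRIM28 and, through it, the histone methyltransferase SETDB1 to silence retroelements and other targets. The BTB domain of ZBTB proteins binds corepressors such as NCOR and BCOR, and the SCAN domain of ZSCAN and ZKSCAN proteins joins family members to each other.

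RNA came from cultured cells of hemangiosarcoma, a malignant tumor of the dog with features of blood vessel lining, with 1 culture and 1 array for each of 10 dogs. All cultures were frozen stocks of early passage. The question of the design was whether the breed of the dog is associated with expression in the tumor cells. The Golden Retriever group held 6 dogs aged 6 to 12 years: the males ChadG4, ChadG8 and Tucker and the females ChadG6, Frog and Journey. Frog and Journey were distantly related. The non-Golden Retriever group held 3 dogs aged 7 to 9 years, all recorded as male and each of a breed of its own: ChadP9 (Portuguese Water Dog), Dal4 (Dalmatian) and Joey (Rottweiler). DD1, a male aged 9 years, was a Golden Retriever and Great Pyrenees cross and was kept out of the breed comparison. Sex and breed group are in part confounded, since the non-Golden Retriever group had no females, and breed cannot be told apart from the single dog within that group. A culture can change as it grows, so p-values measure the spread between the 9 purebred cultures, which includes errors of culture and array.

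Values are log2 signals that the authors had normalized with RMA, and the median over probe sets of an array was 5.77 to 5.83. Markers fixed for other cell types were read in the same table. Of 12 endothelial markers, 6 passed the signal threshold, and CDH5, the cadherin of endothelial junctions, stayed at 5.15 to 5.41, near the threshold, while the VEGF receptor gene KDR had 6.51 to 8.25. All 10 fibroblast and smooth muscle markers passed, with COL1A1, a chain of type I collagen, at 12.84 to 13.63. The leukocyte list had 4 of 9 markers above the threshold, the epithelial list 2 of 4 and the erythroid list 1 of 3. Dal4 went against its recorded sex at 1 probe set of EIF2S3, a gene with copies on both sex chromosomes. The signal of this probe set was 2.95 in Dal4, 3.08 to 3.33 in the females and 10.15 to 10.60 in the other males. At the other probe sets of EIF2S3, Dal4 had 12.56 and 11.47, under the females at 12.98 to 13.23 and 12.01 to 12.12. There ChadG4, recorded as male, had 13.18 and 12.19, as high as the females.

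In the cells of Golden Retrievers, zinc finger genes tended to have less signal than in the cells of the other breeds, by small amounts for each gene, and no single member passed the adjusted test. The members with the smallest p were ZNF322, ZNF148 and ZNF169, all lower in Golden Retrievers. With limma, 0 of 170 members differed at an adjusted p under 0.05, beside 1 of 26891 probe sets (0.00372%), and the smallest adjusted p of a member was 0.750. At an unadjusted p under 0.05, 20 members were lower in Golden Retrievers (11.8%), beside 4.46% of all tested genes, and 0 were higher, beside 1.68% of all tested genes. For 14 members (8.24%) the highest Golden Retriever signal was under the lowest of the other breeds, beside 1.72% of all tested genes, and the reverse held for 0 members, beside 0.763%. The median difference (Golden Retrievers minus other breeds) was -0.10 log2 units over the members and -0.02 over all tested genes. The difference was below 0 for 113 of 170 members (66.5%) and for 53.3% of all tested genes. Of the 7 members that needed the non-Golden Retriever arrays to pass the signal threshold, ZNF197, ZNF334 and ZNF583 were among the 20. Leaving out all 7, a step chosen after seeing the data, left 17 lower and 12 without overlap. Single differences ran from -1.36 to 0.68, and 16 members were lower by more than 0.5 log2 units while 1, ZNF395, was higher by more than 0.5. In RNA from a whole culture, fewer cells with a transcript and less transcript per cell cannot be told apart.

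**Figure D1:**
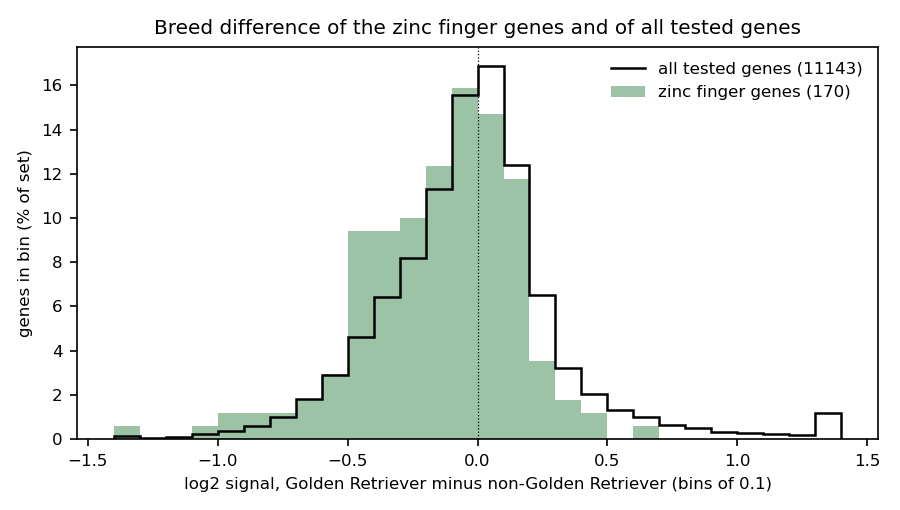
The x axis is the difference between the breed groups (Golden Retrievers minus other breeds, log2) in bins of 0.1, and the y axis is the percent of genes in each bin. Bars are the 170 zinc finger genes and the line is all 11143 tested genes, with values beyond the plotted range counted in the end bins. The bars reach further than the line between -0.5 and -0.2 and stay under it above 0.2, with medians of -0.10 and -0.02.

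These counts were compared with those of other genes in the same range of signal. When the tested genes were split by mean signal into 5 bands of equal size, the share of members lower at an unadjusted p under 0.05 was 18.9% in the lowest band (53 members), where other genes had 2.76%. It was 9.43% in the next band (53 members), where other genes had 5.24%. In the middle band it was 7.89% (38 members), and other genes had 6.07%. The band above it gave 9.09% (22 members), and other genes had 5.26%. In the highest band 0 of 4 members were called, and other genes had 2.43%. The gap to the other genes was widest in the lowest band, where 10 members were called. Among those 10 were ZNF197, ZNF334 and ZNF583, which passed the signal threshold only with the help of the non-Golden Retriever arrays. Signals in this band lie near the threshold. In the bands above it the counts called were 5, 3, 2 and 0 members, too few to set apart from the shares of the other genes. Members lower without overlap numbered 4, 5, 3, 2 and 0 from the lowest band up, again small counts. Their shares were 7.55%, 9.43%, 7.89%, 9.09% and 0%, beside 0.873%, 2.48%, 1.92%, 1.81% and 1.03% of other genes. The median difference was -0.09, -0.09, -0.21, -0.09 and -0.09 over members and 0.03, -0.0007, -0.07, -0.08 and -0.02 over other genes.

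The scaling of the arrays and single dogs moved these values. With each array centred on the median of its tested probe sets, the median difference was -0.03 over the members and 0.05 over all tested genes, 55.9% of members and 42.1% of all tested genes were lower, and 9 members (5.29%) were lower at an unadjusted p under 0.05, beside 2.84% of all tested genes. All 9 were among the 20. Among all tested genes called at that p, 27.3% were higher in Golden Retrievers as deposited and 45.9% after centring. Without Joey, 10 members were lower at an unadjusted p under 0.05, beside 3.43% of all tested genes, and 8 of them were among the 20. Without ChadP9 there were 32, beside 8.28% of all tested genes, of which 16 were among the 20. Among dogs recorded as male, 3 against 3, there were 11 (6.47%), beside 3.68% of all tested genes, and with Dal4 also left out there were 7 (4.12%), beside 2.32%. The median over the members stayed between -0.15 and -0.07 when each of the 9 purebred dogs was left out in turn.

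ZNF322 had the smallest p of all members. It encodes a C2H2 protein that has been studied as an oncogene in lung cancer, and lies on chromosome 35 of the dog assembly UU_Cfam_GSD_1.0 from 25855769 to 25878333. In Golden Retrievers its lowest signal was 5.90, its median 6.03 and its highest 6.26, and the signals of ChadP9, Dal4 and Joey were 6.60, 6.81 and 6.85. All 6 Golden Retrievers lay below all 3 other dogs, and the gap between the groups was about as wide as the whole range of the Golden Retrievers. The log2 difference was -0.71 (SE 0.131, adjusted p = 0.750 by limma). The gene was measured by 1 probe set.

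ZNF148, also known as ZBP-89, binds GC-rich promoters and can activate or repress them. The gene lies on chromosome 33 from 28923658 to 29043333. Signals of Golden Retrievers ran from 6.41 in ChadG4 to 7.39 in Frog, with a median of 7.03, and ChadP9 had 7.65, Joey 7.89 and Dal4 8.23. The groups did not overlap at this probe set, and ChadG4 stood lowest. The log2 difference was -0.94 (SE 0.217, adjusted p = 0.774). Its other 3 tested probe sets had differences of -1.06, -0.76 and -0.54, each with overlapping groups.

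ZNF169, a KRAB zinc finger gene (chromosome 1, 98533818 to 98576895), had one of the narrowest spreads, from 6.16 to 6.28 in Golden Retrievers with a median of 6.20, and 6.60, 6.68 and 6.69 in Dal4, ChadP9 and Joey. The log2 difference was -0.45 (SE 0.107, adjusted p = 0.774), many times the SD within each group (0.0467, n = 6, and 0.0513, n = 3). With the methods' t-test, which uses each probe set's own variance, its adjusted p was 0.0454, and it was the only member that passed. Its second probe set had a difference of -0.29 (SE 0.135) with overlapping groups.

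ZNF583, ZNF197, ZNF45 and ZNF189 are also known as KRAB genes. ZNF583 was above the threshold on 4 arrays, those of the 3 non-Golden Retrievers and DD1, with 4.36 to 5.03 in Golden Retrievers and 5.29 to 5.42 in the others (log2 difference -0.56, SE 0.168, adjusted p = 0.774). The groups of ZNF583 did not overlap, but all 6 Golden Retriever signals lay under the threshold, so the gene entered the tests through the group where it was high. ZNF197, whose protein binds the von Hippel-Lindau tumor suppressor, had 4.87 to 5.15 in Golden Retrievers and 5.25 to 5.45 in the others (log2 difference -0.35, SE 0.123). For ZNF45 the lowest, median and highest Golden Retriever signals were 5.25, 5.28 and 5.73, and the other dogs had 5.63 to 5.99. Tucker alone reached into the range of the other breeds at ZNF45. ZNF189 had 5.49 to 6.38 in Golden Retrievers and 6.56 to 6.70 in the others, without overlap.

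The BTB genes among the lower members were ZBTB41, ZBTB5 and ZBTB2. ZBTB5, a repressor of the cell cycle inhibitor gene CDKN1A, had signals of 6.05 to 6.40 in Golden Retrievers with a median of 6.15, and 6.45 in Dal4, 6.64 in Joey and 6.71 in ChadP9. Its groups did not overlap, with Tucker nearest to the other breeds, and the log2 difference was -0.42 (SE 0.132, adjusted p = 0.774). ZBTB2, which represses genes of the p53 pathway, had 7.25 to 7.83 in Golden Retrievers and 7.85, 8.01 and 8.26 in ChadP9, Dal4 and Joey, again without overlap but with a gap smaller than the spread. ZBTB41 had 5.14 to 5.96 and a median of 5.40 in Golden Retrievers, and 5.96, 6.35 and 6.73 in ChadP9, Dal4 and Joey. Frog and ChadP9 met at 5.96, so the groups of ZBTB41 overlapped (log2 difference -0.85, SE 0.228, adjusted p = 0.774). Over all 27 ZBTB members the median difference was -0.07 log2 units, and 17 were lower (63.0%, beside 53.3% of all tested genes). At an unadjusted p under 0.05, 3 were lower (11.1%, beside 4.46% of all tested genes).

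Of the remaining named lower members, ZNF106 encodes a nuclear protein that binds RNA, and its signals were 8.21 to 8.58 in Golden Retrievers and 8.61, 9.13 and 9.43 in ChadP9, Dal4 and Joey. ChadP9 lay only just above the Golden Retrievers, while Dal4 and Joey were clear of them. The log2 difference was -0.60 (SE 0.186, adjusted p = 0.774). ZNF330, a nucleolar protein, had 8.37 to 8.85 in Golden Retrievers and 8.97, 8.99 and 9.66 in ChadP9, Dal4 and Joey. Joey stood well above the rest at ZNF330, where the log2 difference was -0.55 (SE 0.187). For ZNF507 the range was 6.59 to 6.88 in Golden Retrievers, and 7.05, 7.06 and 7.51 in Joey, ChadP9 and Dal4 (log2 difference -0.49, SE 0.144). For ZNF329 it was 5.50 to 5.74 against 5.81 to 6.01 (log2 difference -0.32, SE 0.117). Both were without overlap and had an adjusted p of 0.774.

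**Figure D2:**
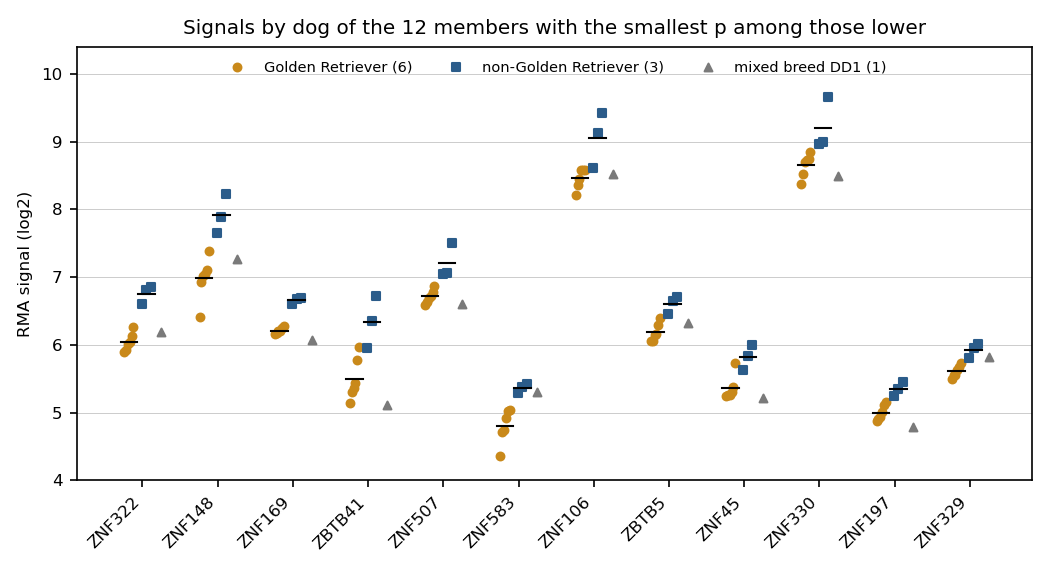
RMA signals (log2, y axis) of the 12 members with the smallest p among those lower in Golden Retrievers. Each point is 1 dog, circles are 6 Golden Retrievers, squares 3 non-Golden Retrievers and the triangle is DD1, and the lines are group means. In 10 of the 12 genes every circle is below every square; ZBTB41 and ZNF45 overlap.

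The remaining members of the 20 were named only to complete that count, after their values were seen. They were ZNF227, ZNF496, ZNF334, ZNF280D, ZSCAN25 and ZNF517, with log2 differences of -0.30 to -0.49, and in all of them the groups overlapped. Conversely, ZNF410 and ZNF668 had groups without overlap but did not reach an unadjusted p of 0.05. ZNF410, which activates the gene of the chromatin remodeler CHD4, had 8.01 to 8.24 in Golden Retrievers and 8.28 to 8.72 in the others (log2 difference -0.28, SE 0.134). ZNF668 had 5.17 to 5.32 and 5.34 to 5.59 (log2 difference -0.20, SE 0.116).

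The 16 members lower by more than 0.5 log2 units held 5 others that are named to complete that count, after their values were seen. ZNF384, which binds A-rich DNA and is a fusion partner in leukemia, had 6.28 to 6.81 in Golden Retrievers and 6.69, 6.71 and 7.90 in ChadP9, Joey and Dal4. Dal4 alone stood clear of the Golden Retrievers at ZNF384. ZNF740 had 5.98 to 7.69 in Golden Retrievers and 7.17 to 8.07 in the others, and ZBTB44 had 6.70 to 7.53 and 7.17 to 8.33. ZNF215 had 5.41 to 6.71 and 5.87 to 7.21. ZNF283 passed the signal threshold on 3 arrays only, with 4.12 to 5.08 in Golden Retrievers and 4.70 to 5.71 in the others. Dal4 was the highest of the 10 dogs at all 5 genes and ChadP9 lay within the Golden Retriever range at each, so the groups overlapped.

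By name family, among ZNF members 91 of 135 were lower in Golden Retrievers (67.4%, beside 53.3% of all tested genes), with a median difference of -0.11 log2 units. At an unadjusted p under 0.05, 16 ZNF members were lower (11.9%, beside 4.46% of all tested genes). Of the 8 SCAN family members 5 were lower (62.5%), a share that cannot be set apart from 53.3% with so few genes, with a median of -0.09 and 1, ZSCAN25, lower at that p. Its neighbor ZKSCAN5 had 5.36 to 6.01 in Golden Retrievers and 5.80 to 6.09 in the others (log2 difference -0.20, SE 0.183), while ZSCAN10, a gene of embryonic stem cells, had 6.51 to 6.81 and 6.31 to 6.68 (0.13, SE 0.133). The well known BTB members ZBTB16, ZBTB17 and ZBTB20, named for their role and outside the rule for named genes, differed little between the breeds. ZBTB16, also called PLZF, had 5.45 to 6.22 in Golden Retrievers and 5.37 to 5.75 in the others (log2 difference 0.12, SE 0.197). ZBTB17, the MYC partner MIZ1, had 5.37 to 5.73 and 5.46 to 5.68 (log2 difference -0.03, SE 0.129). ZBTB20, a repressor active in liver and brain, had 9.29 to 10.84 and 10.03 to 10.23 (log2 difference -0.05, SE 0.306). For these genes the spread within Golden Retrievers was wider than the difference.

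Members that were higher in Golden Retrievers had smaller differences, and none of them reached an unadjusted p of 0.05. ZNF395, a factor induced by hypoxia, had the largest, with a lowest signal of 7.16, a median of 7.89 and a highest of 8.41 in Golden Retrievers. The other breeds had 6.70, 7.18 and 7.54, so ChadG4 at 7.20 and Tucker at 7.16 lay among them, and DD1 was above every purebred dog at 8.47. The log2 difference was 0.68 (SE 0.327, 95% confidence interval -0.05 to 1.41, adjusted p = 0.776). A second probe set of ZNF395 gave -0.06. ZNF704, a paralog of ZNF395, had 5.90 to 7.27 in Golden Retrievers and 6.16 to 6.50 in the others (log2 difference 0.41, SE 0.292). ZBTB4, which binds methylated CpG sites, had 9.38 to 10.44 and 8.92 to 9.93 (log2 difference 0.40, SE 0.289). The other 5 of the 8 members with the smallest p among those higher were ZNF32, ZNF839, ZSCAN4, ZNF414 and ZBTB8OS. They had differences of 0.20 to 0.24 and adjusted p of 0.788 to 0.844. The direction of ZNF32 was not stable: the mean of its tested probe sets gave -0.0021 in place of 0.22.

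A difference can rest on 1 probe set, so the tested probe sets of each gene were set side by side. Of 170 members, 67 had at least 2 tested probe sets, and in 46 of these all had the same sign. Among the 20 lower members, 8 had at least 2, and in all 8 every probe set was lower in Golden Retrievers. The other 12 had 1. The lack of overlap did not repeat in the same way. ZNF148, ZNF169, ZNF106, ZNF330, ZBTB2 and ZBTB5 had groups without overlap at the probe set read. At every other tested probe set of these genes the groups overlapped. At ZNF410, which was not among the 20, both probe sets had groups without overlap. Over the 263 tested probe sets of the families, 179 were lower, and of all 26891 tested probe sets 52.8% were lower. Agreement in sign between probe sets was not read over all tested genes. ZNF106 was the most heavily covered of the 12 named lower genes, with 5 probe sets and differences of -0.41 to -0.65. Probe sets ending in _s_at hold probes that can match several transcripts. The 70 members read by them had a median difference of -0.18 and 12 lower at an unadjusted p under 0.05, and the 98 members read by probe sets ending in _at had -0.06 and 7. Over all tested genes the medians of these kinds were -0.05 and -0.01 (5.73% and 3.77% lower at that p), so the kind of probe set moved with the difference. Whether it had a part in the result was not tested.

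To see how single dogs stood within the groups, each member's signal was taken as its deviation from the mean of the 10 dogs, and the median over members was read for each dog. It was highest in Joey at 0.17 log2 units, and followed by Dal4 at 0.06, ChadP9 at 0.05, Tucker at 0.05 and Journey at 0.01. Below 0 were DD1 at -0.02, ChadG4 at -0.06, ChadG6 at -0.07, ChadG8 at -0.08 and Frog at -0.11. The non-Golden Retrievers therefore lay toward the top, but Tucker, a Golden Retriever, had as much as ChadP9. Over all tested genes the medians ran only from -0.04 to 0.04, and Joey had -0.01. Joey had the highest signal of the 10 dogs in 39 members (22.9%), beside 12.2% of all tested genes. Frog had the lowest in 34 of 170 members, beside 8.65% of all tested genes. Dal4 stood at both ends, with the highest signal in 33 members and the lowest in 26, and its shares were close to those over all tested genes (20.7% and 17.0%). Centring the arrays moves all genes of an array alike, so the members were also read relative to the median of all tested genes of the same dog, which centring leaves as it is. Joey then stood at 0.18, Dal4 at 0.06, Tucker at 0.05 and ChadP9 at 0.03, and the lowest were ChadG8 at -0.05 and Frog at -0.07. The other Golden Retrievers and DD1 lay between -0.03 and -0.01.

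**Figure D3:**
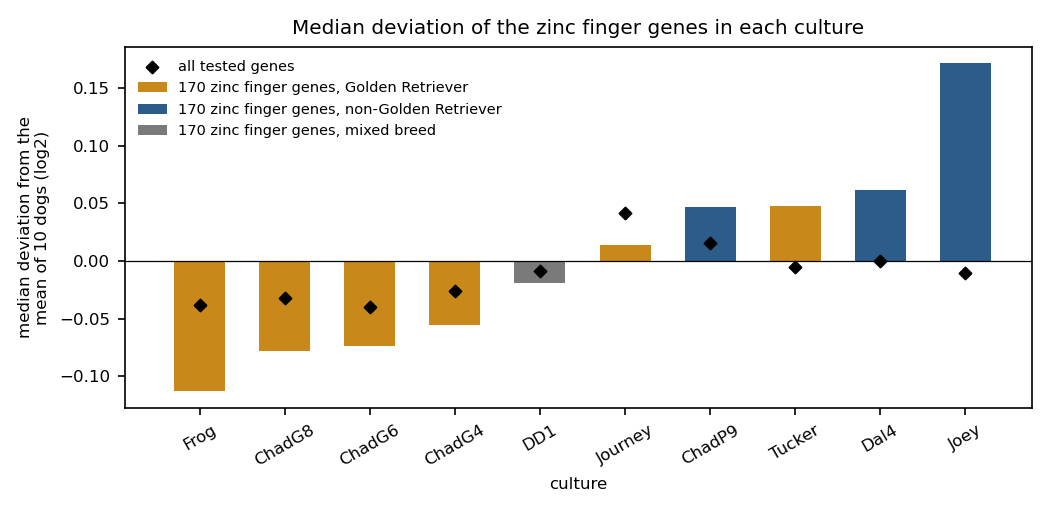
Median deviation from the mean of 10 dogs (log2, y axis) in each culture (x axis), with bars for the 170 zinc finger genes colored by breed group and diamonds for all 11143 tested genes. The bars run from -0.11 in Frog to 0.17 in Joey, while the diamonds stay between -0.04 and 0.04.

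Other features of the cultures were read beside this order. The proliferation list, 17 tested genes such as TOP2A and MCM2, had a median deviation of 1.75 in Dal4, 1.09 in Frog and 0.91 in ChadG4. It had -0.74 in ChadG8, -0.78 in Joey, -0.92 in ChadP9 and -1.59 in Tucker. High and low values were thus found in both breed groups, and between the groups its median difference was -0.03 with 0 genes at an unadjusted p under 0.05. The fibroblast and smooth muscle list was higher in Golden Retrievers at 8 of 10 genes (median difference 0.36), 1 of them at an unadjusted p under 0.05. Its median deviation by dog was -0.30 to 0.26 in Golden Retrievers and -0.24 to -0.02 in the non-Golden Retrievers. The 3′ minus 5′ signal of an ACTB control, a reading of RNA integrity, was 1.27 in Tucker, 0.83 in Joey and 0.01 to 0.60 in the other dogs. At the other ACTB control Tucker was again the highest at 0.43, followed by Joey at 0.04, with -0.68 to -0.17 in the other dogs. Tucker was the highest at both GAPDH controls too, but Joey lay within the range of the other dogs there, with 0.30 and 0.23. The fibroblast marker with an unadjusted p under 0.05 was DCN, the matrix proteoglycan decorin, with 13.64 to 14.21 in Golden Retrievers and 12.55, 12.96 and 14.05 in ChadP9, Dal4 and Joey (log2 difference 0.74, SE 0.297, adjusted p = 0.774). ERG, a transcription factor of endothelial cells, was also higher at an unadjusted p under 0.05, with 5.69 to 6.93 in Golden Retrievers and 4.80, 5.12 and 6.27 in Joey, Dal4 and ChadP9 (log2 difference 0.90, SE 0.356, adjusted p = 0.774). The VEGF receptor gene FLT1, named after its values were seen, had 3.67 to 8.38 and 3.50 to 4.98 (log2 difference 2.19, SE 1.04, adjusted p = 0.776). Groups overlapped at all 3 genes. Of the other marker lists, 4 of 6 endothelial genes (median difference 0.13), 3 of 4 leukocyte genes (0.16) and 2 of 2 epithelial genes (1.49) were higher in Golden Retrievers. The part of any of these in the members' differences was not tested.

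Most members varied little between cultures. The SD over the 10 arrays had a median of 0.255 log2 units over the members and 0.314 over all tested genes, and the range over arrays was wider than 1 log2 unit for 34.1% of members and 50.6% of all tested genes. It was wider than 2 for 7 members (4.12%), beside 14.4% of all tested genes. At each of the 8 members that varied most the breed groups overlapped.

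ZNF423 varied most (SD 1.86, 10 arrays). It encodes a partner of EBF and SMAD proteins with many fingers that takes part in the commitment of cells to the fat lineage. Its signals were 3.82 in Frog, 4.55 in ChadG4, 4.63 in Journey, 6.49 in ChadG6, 7.42 in Tucker and 8.59 in ChadG8. In the other dogs they were 4.87 in Dal4, 6.63 in ChadP9, 6.96 in DD1 and 9.47 in Joey. ChadG4, Frog, Journey and Dal4 were thus under the threshold while ChadG8 and Joey were far above it, and the breed groups overlapped over nearly the whole range (log2 difference -1.08, SE 1.23, adjusted p = 0.897).

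ZNF608, a paralog of ZNF609, was lowest in ChadG4 at 4.84 and highest in Dal4 at 9.63. The other Golden Retrievers had 6.08 to 8.31, Joey 7.38, ChadP9 7.26 and DD1 7.47. The members' most negative difference, -1.36 (SE 0.751, adjusted p = 0.784), therefore came with overlap and leaned on 1 dog at each end. ZNF367 was also highest in Dal4, at 7.01, against 3.91 to 5.70 in the other 9 dogs. ZBTB6 split the Golden Retrievers, with 4.38 in Tucker and 4.44 in ChadG8, and 5.44 to 6.17 in the other 4, while the other breeds held to 5.99 to 6.30.

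ZNF655, whose protein binds the signaling factor VAV1, had 6.03 in ChadG4 and 8.23 in Frog, with the other breeds between them at 7.46 to 8.14. The X-linked gene ZNF182 had 3.68 in Dal4 and 5.89 in ChadG4. ZNF532, part of a chromatin complex with ZMYND8, had 6.60 in ChadG4 and 8.78 in Tucker, and 7.39 to 8.39 in the other breeds. None of these 3 genes separated the breeds, with differences of -0.70 (SE 0.426), 0.07 (SE 0.511) and -0.15 (SE 0.428).

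**Figure D4:**
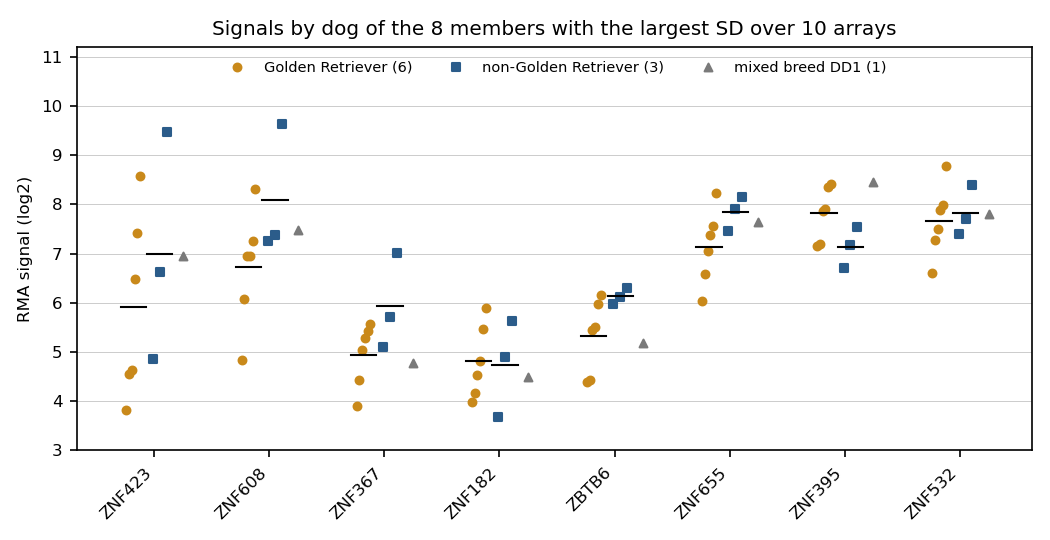
RMA signals (log2, y axis) of the 8 members with the largest SD over 10 arrays, with symbols as for the lower members: circles for 6 Golden Retrievers, squares for 3 non-Golden Retrievers, a triangle for DD1 and lines for group means. Circles and squares overlap in all 8 genes; ZNF423 runs from 3.82 to 9.47.

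DD1 was 1 dog, so its signals were set against the range of the 9 purebred dogs with no test. It lay within that range for 152 of 170 members, above it for 7 (4.12%, beside 4.52% of all tested genes) and below it for 11 (6.47%, beside 3.89%). Its signal was nearer to the mean of the Golden Retrievers than to that of the other breeds for 125 members (73.5%), beside 65.5% of all tested genes. Among the 20 lower members this held for 17. At 11 of the 14 members whose groups did not overlap, DD1 was at or below the highest Golden Retriever. Both of these counts come from members picked for their breed difference. The same was not read for other genes picked that way, so neither count is shown to be particular to the members.

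Farthest above the purebred range was ZNF300, a KRAB gene, at 6.93 against 6.07 to 6.60. This rested on 1 probe set: at the other tested probe sets of ZNF300, DD1 lay within the purebred range, at 5.24, 5.48 and 5.64. ZNF274, which brings SETDB1 to the 3′ ends of other zinc finger genes, was at 6.53 against 5.84 to 6.39. ZNF217, an oncogene amplified in breast cancer, had 6.13 against 5.77 to 6.05, and ZNF462 had 8.73 against 7.55 to 8.66. The excess over the highest purebred dog was 0.33 at ZNF300 and smaller at the other 3. Farthest below was ZNF706, a small protein with 1 finger, at 9.73 against 10.43 to 11.10. ZNF70 had 6.99 against 7.31 to 7.83, ZNF451, a SUMO ligase, had 6.87 against 7.09 to 8.80, and ZBTB49 had 5.22 against 5.42 to 6.09. At the other tested probe sets of ZNF706, DD1 lay below the purebred range at 9.31 and 7.91 and within it at 10.05. At the second probe set of ZNF70 it lay below at 5.12, and at that of ZBTB49 it lay within at 5.24.

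**Figure D5:**
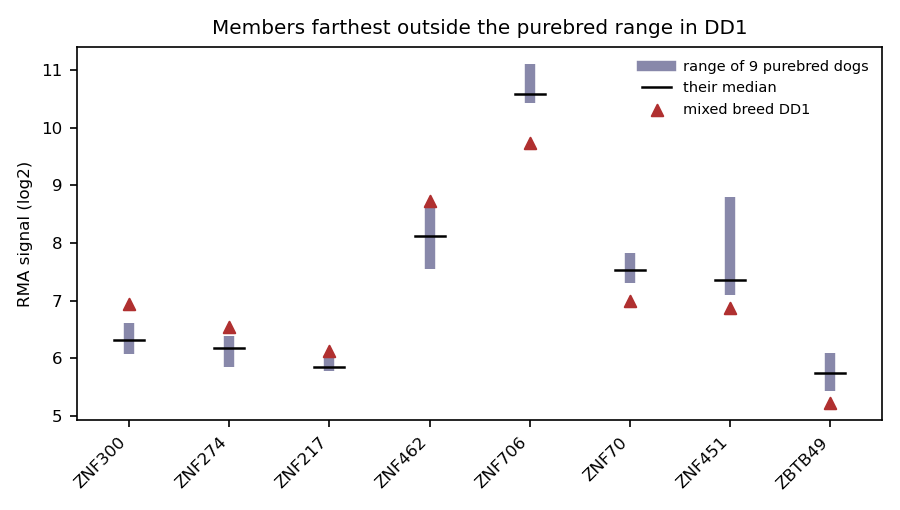
RMA signals (log2, y axis) of DD1 (triangles) for the 4 members farthest above and the 4 farthest below the range of the 9 purebred dogs (thick bars, median as a line). The widest gap is at ZNF706, 9.73 in DD1 and at least 10.43 in the purebred dogs.

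Zinc finger genes outside the 4 name families were read from a fixed list of other C2H2 factors. Of 79 genes, 55 were tested, 30 were lower in Golden Retrievers, and the median difference was -0.09. At an unadjusted p under 0.05, 9 were lower (16.4%, beside 4.46% of all tested genes) and 0 higher (beside 1.68%), and 3 had groups without overlap (5.45%, beside 1.72%). GZF1, a BTB factor induced by GDNF, had 5.40 to 5.66 in Golden Retrievers and 5.85, 5.91 and 6.57 in the others (log2 difference -0.57, SE 0.172). YY1, a factor that can activate or repress and that joins enhancers to promoters, had 11.49 to 11.69 and 11.73, 12.05 and 12.17 (log2 difference -0.38, SE 0.132). REST, the repressor of neuronal genes outside neurons, had 4.48 to 5.16 and 5.21 to 5.65 (log2 difference -0.53, SE 0.181), near the threshold of signal. These 3 genes were the ones without overlap.

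The GC box factors SP1 and SP3 and the BTB factor PATZ1 had groups that overlapped. SP3 had 7.21 to 8.38 in Golden Retrievers and 8.30 to 8.77 in the others (log2 difference -0.83, SE 0.264). SP1 had 7.19 to 7.56 and 7.50 to 8.17 (log2 difference -0.44, SE 0.168). For PATZ1 the ranges were 5.62 to 6.34 and 6.09 to 6.95 (log2 difference -0.74, SE 0.244). The adjusted p was 0.774 by limma for each of these 6 factors.

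On the lists of partners of the zinc finger proteins 0 genes reached an unadjusted p under 0.05, while most were lower in Golden Retrievers. Of the KRAB corepressor list, 28 of 32 genes were tested and 21 were lower (75%, beside 53.3% of all tested genes). The median difference was -0.14, and 0 reached an unadjusted p under 0.05. TRIM28, named for its role and not for its values, had 8.76 to 9.85 in Golden Retrievers and 9.08, 9.58 and 10.15 in ChadP9, Joey and Dal4 (log2 difference -0.31, SE 0.280, adjusted p = 0.862). SETDB1 had 7.42 to 8.08 and 7.76 to 8.04 (log2 difference -0.08, SE 0.167). The groups overlapped at both genes. Of the list of BTB and SCAN partners, 14 of 17 genes were tested and 11 were lower (78.6%), with a median difference of -0.12 and 0 at an unadjusted p under 0.05. Of all tested genes 4.46% were lower at that p, and lists of 28 and 14 genes are too short to set 0 apart from that share. BCOR had 7.32 to 8.17 in Golden Retrievers and 8.17 to 8.30 in the others (log2 difference -0.34, SE 0.189), and NCOR1 had a log2 difference of 0.06 (SE 0.196). The medians of both lists lay below that of all tested genes, -0.02, as did that of the members. Joey and Dal4 had the highest median deviations on both lists, 0.14 and 0.20 for the KRAB corepressors and 0.20 and 0.18 for the BTB and SCAN partners.

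Zinc finger genes often lie in runs that arose by duplication, so members were placed on UU_Cfam_GSD_1.0. All 170 were matched, 150 by gene ID and 20 by symbol. Chromosome 1 held 28 members, of which 19 were lower in Golden Retrievers (67.9%, beside 59.4% of the 621 other tested genes placed there) and 7 lower at an unadjusted p under 0.05. Chromosome 6 held 20, of which 12 were lower (beside 48.9% of 548 others) and 1 lower at that p. Over all chromosomes 11.8% of members and 4.46% of all tested genes were lower at that p. The share was not read for the other genes of each chromosome, so no chromosome is set apart by these counts. Runs were taken as family genes no more than 250000 bp apart with at least 3 members. Of 8 such runs, 6 held members of both directions and 2 had all members lower. The run with the most members lay on chromosome 6 from 17311449 to 17881598, with 7 members, 3 of them lower, and differences of -0.20 to 0.18. On chromosome 16 from 14864363 to 15439136, 2 of 6 were lower. On chromosome 1 from 111538301 to 112295924, 3 of 6 were lower, among them ZNF45 and its neighbor ZNF227, while the differences of the run went from -0.62 to 0.15. On chromosome 6 from 10010971 to 10150007, 3 of 4 were lower, with a median difference of -0.29. On chromosome 1 from 102863244 to 102997796 all 3 were lower, with differences close to 0, the lowest being -0.05.

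The other run with all members lower lay on chromosome 13 from 38814750 to 38954658. Its 4 members were ZNF7, ZNF517, ZNF34 and ZNF252, with a median difference of -0.41. The other genes of chromosome 13 had a median of -0.18, and 71.9% of 199 were lower. Dal4 had the highest signal of the 10 dogs at ZNF7, ZNF517 and ZNF34, at 9.73, 8.41 and 6.73, and Joey at ZNF252, at 7.54. ChadP9 lay among the Golden Retrievers or below them at all 4 genes, with 8.77 at ZNF7, 7.68 at ZNF517, 5.74 at ZNF34 and 6.44 at ZNF252.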

How the data were processed

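RNA from 10 cultures was hybridized to Canine_2 arrays. The authors deposited 1 table of log2 signals of 43035 probe sets, made with RMA in the affy package per the labels, with versions not given in the sources used here. RMA corrects background and sets all arrays to 1 distribution, so a shift common to most transcripts of a culture cannot be seen. Of these probe sets, 111 controls were left out, and 26891 probe sets entered the tests, those with a signal over their array's 40th percentile on 3 or more arrays. An array has no read depth, and the number of arrays limits the precision.

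Groups came from the breed labels, and sex and age from the signalment given by the study. The breed label of Joey repeats the dog's name, and its group was taken from the title. Replicate numbers name the dogs in order and pair nothing. Gene names came from the platform annotation, which gave 1 symbol to 29254 probe sets, several to 439 and none to 13231. A gene is its tested probe set with the highest mean.

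Differences were fitted with limma 3.58.1 in R 4.3.3 (lmFit and eBayes), 6 dogs against 3, two-sided, with Benjamini-Hochberg adjustment over all tested probe sets. Tables were made with Python 3.11.15 and pandas 2.3.3. In simulated data with the real means and spreads, 35.8% of the probe sets changed by 1 log2 unit were found, 79.1% of those changed by 2 and 93.9% of those changed by 4, at an adjusted p under 0.05, so a difference that did not pass is not shown to be absent.

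Members, lists and the rule for named genes were chosen with earlier results of these data known. Named were the 12 lower and 8 higher members with the smallest p, ZNF322 and ZNF169, the 8 with the largest SD, the 4 farthest above and the 4 farthest below the purebred range in DD1, list genes with an unadjusted p under 0.05 (at most 6 per list), and 2 genes on each side of the signal threshold. Lists are described by counts and medians, with no test. Alternatives were other filters, the methods' t-test (plain, with equal variance), array weights, 2 other scalings, leaving out dogs, males alone, DD1 in either group and the mean of a gene's probe sets.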

Additional observations from a re-analysis of the deposited data

Results flagged for a closer look

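In the 6 Golden Retrievers, the named members were searched for a dog far from the other 5. Of 35 members, 2 had one, and chance gives about 1 in 20. ZNF45 had 5.73 in Tucker, where the next highest Golden Retriever had 5.38 and the lowest 5.25. Without Tucker the groups of ZNF45 would not overlap. ZSCAN4, a gene of telomere maintenance in early embryos, had 6.44 in ChadG8, where the next highest had 6.30 and the lowest 6.23.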

How the results depend on the processing

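In the main analysis 20 members were lower and 0 higher at an unadjusted p under 0.05, 14 had groups without overlap, and 0 passed an adjusted p under 0.05. Leaving out each dog in turn gave 10 to 32 lower (2.24% to 8.28% of all tested genes were lower at that p), and 0 to 4 higher. It gave 14 to 36 without overlap (1.72% of all genes had none in the main analysis and 1.89% to 7.79% here). There were 10 lower without Joey, and 32 lower and 36 without overlap without ChadP9. The higher count was 1 without the signal filter, by the methods' t-test and with array weights. It was also 1 in males alone, in males without Dal4 and with DD1 as a Golden Retriever. In these settings 1.04% to 2.24% of all tested genes were higher at that p. The methods' t-test also gave 1 member at an adjusted p under 0.05, ZNF169. The lower count was 12 above the 50th percentile (9.02%, beside 4.44% of all tested genes). It was 9 with arrays centred on their median (5.29%, beside 2.84%), with a difference below 0 for 55.9% of members. Males alone gave 11 (6.47%, beside 3.68%) and 22 without overlap, where 6.62% of all genes had none. Males without Dal4 gave 7 (4.12%, beside 2.32%) and 35 without overlap, where 9.92% of all genes had none. With DD1 as a non-Golden Retriever there were 7 (4.12%, beside 2.29%) and 3 without overlap (1.76%, beside 0.323%). Without ChadG4 and Dal4 there were 11 (6.47%, beside 2.46%). The 98 members with _at probe sets held 7 (7.14%, beside 3.77% of all genes read by this kind) and 7 without overlap. Keeping only probe sets with variance above the median left 77 members, 5 lower (beside 2.87%) and 9 without overlap (beside 2.06%). Their median difference was -0.39, which differed from that of all genes by -0.27. The difference was below 0 for 79.2% of them, beside 60.9% of all genes kept. Such a filter removes small differences by construction. For the other changes the cause was not tested. The mean of its probe sets turned ZNF32 to -0.0021. The other 19 of the 20 members named for breed kept their direction in each alternative that tested them. The analyses without ChadG4 and Dal4, of males without Dal4, of _at probe sets and of members that passed the signal threshold without the non-Golden Retriever arrays were chosen after seeing the data. Members restricted by C2H2 patterns in the protein were not run. No paired analysis was possible because the replicate numbers only name the dogs. With 3 dogs in a group, the recovery of small changes limits what the adjusted test can show.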
